A study of Mus musculus with 12 samples.

Results

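The genes described here are 10 ligands of the tumor necrosis factor (TNF) superfamily: *Tnf*, *Lta*, *Ltb*, *Tnfsf14*, *Tnfsf8*, *Tnfsf4*, *Tnfsf11*, *Tnfsf9*, *Cd40lg*, and *Fasl*. They were chosen by symbol, and all 10 were found among the 32051 genes of a bulk RNA-seq data set of mouse Th9 cells, the IL-9–producing subset of helper T cells. Naive CD4+ T cells from the spleens of C57BL/6J mice, aged 6 to 8 weeks per the study's methods, were stimulated through CD3 and CD28 and polarized with IL-4 at 10 ng/mL, TGF-β at 1 ng/mL, and antibodies against IL-12 (5 μg/mL) and IFN-γ (10 μg/mL). Every group shared this treatment. The 4 groups of 3 replicates received the vehicle DMSO, EpA at 10 μM, fatostatin at 5 μM, or both compounds, and their RNA was harvested on day 4. EpA is a cyclic lipopeptide from a fungus. The study describes fatostatin as an inhibitor of the lipid-synthesis regulator SREBP1, and its reagent list names SREBP without a number. Anti-CD28 was given at 1 μg/mL, while anti-CD3 is stated as 5 μg/mL in the sample descriptions and as 2 μg/mL in the methods. No engineered allele is named for any group. The methods also list CD45.1+ OT-II transgenic mice as a source of naive cells, without saying which source served for RNA-seq. The study calls its Th9 RNA-seq samples independent, but neither source names separate animals or cultures, so the p-values below measure only the spread between these samples. The questions were what each compound did to the ligand genes, alone and on top of the other.

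TNF superfamily ligands are mostly trimeric type II membrane proteins that bind receptors of the TNF receptor superfamily on neighboring cells. Many of these receptors activate NF-κB through TRAF adaptors, and those with death domains can activate caspases through adaptors such as FADD. Activated T cells use them to costimulate one another (OX40 ligand, CD30 ligand, 4-1BB ligand), to license dendritic cells and B cells (CD40 ligand), to shape lymphoid tissue and bone (lymphotoxins and RANKL), and to kill (Fas ligand).

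Levels are given in FPKM, fragments per kilobase of gene scaled to library size, which are comparable between genes. Each library held between 36019740 and 43656682 reads on genes, as recovered from the FPKM values. The lowest value among the 10 genes, *Tnfsf9* in the fatostatin group, rested on 30 to 55 of these reads. Sequencing was paired-end, and every library had more genes at 2 reads than at 1 (1098 and 539 in DMSO replicate 1). Whether the mates of a pair were counted separately is not stated, so the fragments may be fewer than the reads. The 7 T cell markers found of 8 summed to between 721 and 765 FPKM in all libraries. B cell markers summed to between 5.22 and 8.71 FPKM, most of it *Cd79b*, and myeloid and dendritic cell markers to between 2.02 and 3.36 FPKM, with *Siglech* at 3 reads or fewer everywhere. In bulk RNA, fewer cells of a type and less RNA per cell cannot be told apart.

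All 10 genes were detected in every library, over a wide range. In DMSO, *Tnfsf8* had the highest level (37.4 FPKM ± 1.02; SD, n = 3), above 89.7% of the tested genes, followed by *Ltb* (19.6 ± 0.0563) and *Lta* (16.2 ± 0.563). *Tnfsf11* (9.27 ± 0.919) and *Fasl* (8.74 ± 1.12) overlapped each other, as did *Tnf* (4.10 ± 0.374) and *Cd40lg* (3.44 ± 0.692). *Tnfsf4* (6.81 ± 0.552) and *Tnfsf14* (5.07 ± 0.637) overlapped no neighbor in the order. However, the lowest library of *Tnfsf14* (4.470 FPKM) was barely above the highest of *Tnf* (4.467 FPKM). *Tnfsf9* was lowest at 1.15 ± 0.264. With EpA, *Lta* moved up from rank 3 to rank 2, and with fatostatin *Tnfsf4* moved up from rank 6 to rank 3. *Tnfsf8* stayed first and *Tnfsf9* last in all 4 groups.

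**Figure D1:**
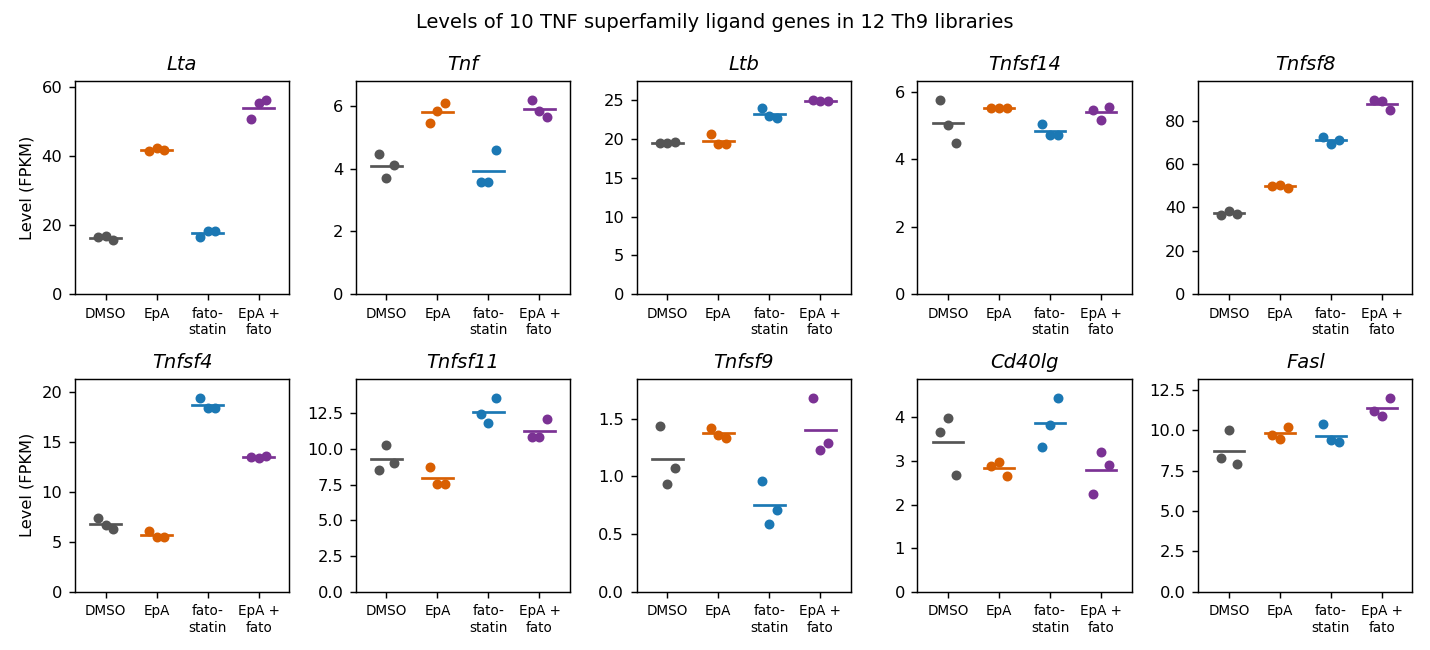
Level of each ligand gene in FPKM (vertical axis, from 0) in every library of the 4 groups (horizontal axis); points are replicates and lines are group means. *Lta* separates the groups with EpA from those without, *Tnfsf4* those with fatostatin from those without, and *Tnfsf8* rises from 37.4 FPKM in DMSO to 87.9 FPKM with both compounds.

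The 10 genes summed to 111.8 FPKM ± 3.84 in DMSO, 150.2 ± 1.38 with EpA, 166.3 ± 2.87 with fatostatin, and 218.5 ± 1.98 with both compounds, and no library of one group overlapped another group. The makeup of the sum differed. *Lta* made up 14.5% ± 0.111 of it in DMSO and 27.8% ± 0.477 with EpA, but 10.6% ± 0.770 with fatostatin. *Tnfsf8* made up 33.5% ± 0.794 in DMSO and 33.1% ± 0.341 with EpA, against 42.7% ± 0.423 with fatostatin. *Tnfsf4* made up 6.10% ± 0.447 in DMSO and 11.3% ± 0.287 with fatostatin. With both compounds *Tnfsf8* (40.2% ± 1.29) and *Lta* (24.7% ± 1.13) were the leading members.

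**Figure D2:**
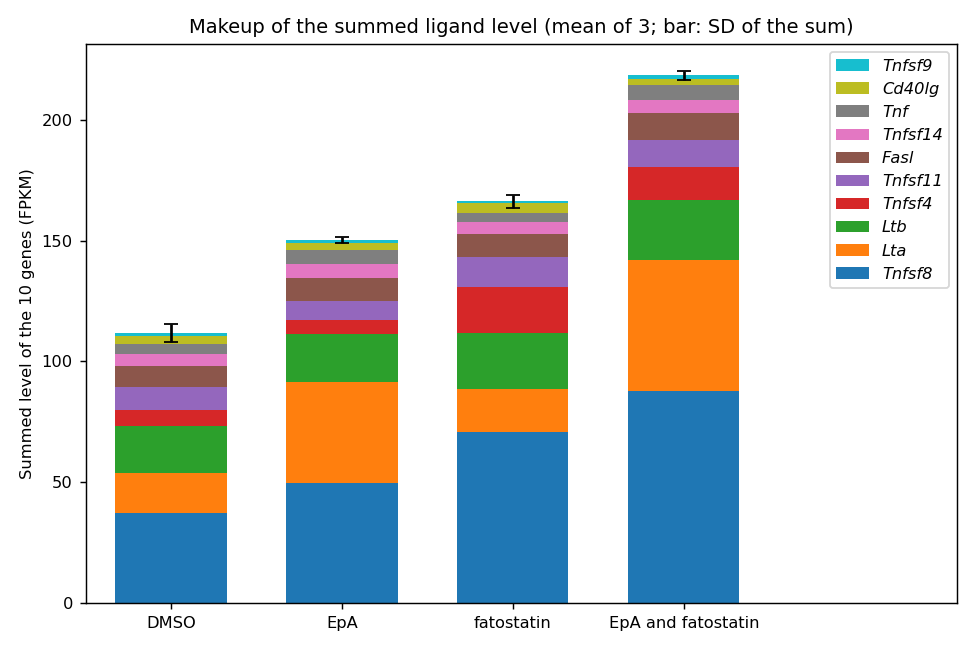
Summed level of the 10 ligand genes in FPKM (vertical axis, from 0) in each group (horizontal axis), stacked by gene as the mean of 3 libraries; the error bar is the SD of the sum. The sum rises from 111.8 FPKM in DMSO to 218.5 FPKM with both compounds, and *Tnfsf8* and *Lta* are the thickest layers there.

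EpA against DMSO raised 3 of the 10 genes (*Lta*, *Tnf*, *Tnfsf8*) and lowered 1 (*Tnfsf4*), counting genes with an adjusted p below 0.05 by limma with Benjamini-Hochberg adjustment over the 13733 tested genes. Of all tested genes, 14.3% rose and 13.1% fell in this comparison. Only *Lta* also passed a fold change of 1.5, against 3.38% of all genes. The median log2 fold change was 0.15 over the 10 genes and 0.00 over all genes.

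Fatostatin against DMSO raised 4 of the 10 (*Tnfsf4*, *Tnfsf8*, *Tnfsf11*, *Ltb*), where 7.69% of all genes rose, and lowered 0, where 6.31% fell. *Tnfsf4* and *Tnfsf8* passed 1.5-fold, as did 1.86% of all genes. The median was 0.16 for the 10 genes and 0.01 for all genes. At an unadjusted p below 0.05, 1 of the 10 was lower, *Tnfsf9* (log2 fold change of −0.55, adjusted p = 0.0694 by limma). In either direction, 3679 of the 13733 tested genes had such a p. Voom on the recovered reads also called 0 lower, while a fit with a replicate block called *Tnfsf9* lower (adjusted p = 0.0118 by limma).

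Fatostatin on top of EpA raised 5 of the 10 (*Tnfsf4*, *Tnfsf8*, *Tnfsf11*, *Lta*, *Ltb*), against 9.22% of all genes, and lowered 0, against 6.79%. *Tnfsf4* and *Tnfsf8* passed 1.5-fold (1.99% of all genes). EpA on top of fatostatin raised 6 (*Lta*, *Tnf*, *Tnfsf8*, *Tnfsf9*, *Ltb*, *Fasl*) and lowered 1 (*Tnfsf4*), against 16.2% and 13.3% of all genes. *Lta*, *Tnfsf9*, and *Tnf* passed 1.5-fold there (3.75% of all genes), *Tnf* by a narrow margin. Both compounds against DMSO raised 7 of the 10 (19.7% of all genes) and lowered 0 (15.8%), and *Lta*, *Tnfsf8*, and *Tnfsf4* passed 1.5-fold (5.64%). In these last comparisons with a count of 0 lower by limma, 0 were lower at an unadjusted p below 0.05 and 0 by voom. In either direction, 3945 (fatostatin on top of EpA) and 6001 (both compounds against DMSO) of the 13733 tested genes had such a p. These comparisons share samples with one another, so their counts are not independent.

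*Lta*, *Tnf*, and *Ltb* lie side by side on chromosome 17 in the major histocompatibility region. *Lta* encodes lymphotoxin-α, a secreted homotrimer that also joins the membrane-bound lymphotoxin-β, encoded by *Ltb*, and *Tnf* encodes the inflammatory cytokine itself. In GRCm38 *Ltb* spans chr17:35194439-35196320 on the plus strand, *Tnf* chr17:35199381-35202007 and *Lta* chr17:35203165-35205351 on the minus strand, with gaps of 3060 and 1157 bases between them. Their upstream promoter sequences (RefSeq, GRCm38.p6, 5′ to 3′ on the gene's strand) are shown because these 3 neighbors responded differently. Capitals mark matches on either strand to the NFAT core GGAAA, the TATA box TATAAA, and, in *Ltb*, a κB consensus that overlaps its GGAAA. The windows are chr17:35205352-35205601 for *Lta*, chr17:35202008-35202257 for *Tnf*, and chr17:35194257-35194438 for *Ltb*.
Lta: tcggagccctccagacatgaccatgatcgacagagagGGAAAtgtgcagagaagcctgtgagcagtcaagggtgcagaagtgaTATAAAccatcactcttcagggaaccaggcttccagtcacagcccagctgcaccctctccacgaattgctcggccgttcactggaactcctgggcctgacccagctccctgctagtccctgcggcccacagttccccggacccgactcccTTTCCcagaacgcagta
Tnf: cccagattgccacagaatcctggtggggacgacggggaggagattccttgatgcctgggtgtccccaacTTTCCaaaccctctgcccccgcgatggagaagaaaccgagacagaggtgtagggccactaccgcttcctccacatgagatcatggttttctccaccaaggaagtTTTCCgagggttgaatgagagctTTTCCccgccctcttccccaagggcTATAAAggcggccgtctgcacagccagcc
Ltb: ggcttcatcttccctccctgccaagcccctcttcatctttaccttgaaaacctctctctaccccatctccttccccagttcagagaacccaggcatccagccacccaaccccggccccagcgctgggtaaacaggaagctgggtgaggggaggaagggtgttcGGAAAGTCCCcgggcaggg
The TATAAA lies 29 bases before the RefSeq start of *Tnf* and 167 before that of *Lta*, and 12.4% of 32851 promoters hold one in a window of 250 bases. GGAAA is common, being found in 55.6% of such windows. The κB match of *Ltb* lies 87 bases before its RefSeq start, which is downstream of the gene start given above, and 5.11% of windows of the same 182 bases hold one. RefSeq promoters were matched for 7 of the 10 genes, and among these the κB consensus was found in *Ltb* alone. The sterol regulatory element TCACNCCAC was found in none of the 7 and in 1.05% of all windows of 250 bases. The AP-1 site TGANTCA was found in *Tnfsf14* alone (6.75%). These are matches of letters, not shown binding sites.

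*Lta* showed the largest response of the 10 genes to EpA. Its levels were 16.4, 16.7, and 15.6 FPKM in the DMSO libraries and 41.4, 42.2, and 41.8 FPKM with EpA. With fatostatin they were 16.4, 18.3, and 18.3 FPKM, and with both compounds 50.6, 55.3, and 56.0 FPKM. All 6 libraries with EpA lay above all 6 without it. The log2 fold change was 1.36 ± 0.05 (SE) for EpA against DMSO (2.57-fold, adjusted p = 9.0e-09 by limma) and 1.61 ± 0.05 for EpA on top of fatostatin (3.05-fold, adjusted p = 2.7e-09). Fatostatin on its own gave 0.12 ± 0.05 (adjusted p = 0.133), with overlapping libraries, and 0.37 ± 0.05 on top of EpA (1.29-fold, adjusted p = 0.000365). Without fatostatin replicate 1, the first of these passed at an adjusted p of 0.0278.

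*Tnf* rose less. Its levels were 4.47, 3.72, and 4.11 FPKM in DMSO and 5.46, 5.83, and 6.11 FPKM with EpA. They were 3.59, 3.57, and 4.61 FPKM with fatostatin and 6.19, 5.84, and 5.67 FPKM with both. Again no library with EpA overlapped one without it, although the distance was small. The log2 fold changes with EpA were 0.49 ± 0.10 against DMSO (1.41-fold, adjusted p = 0.00281 by limma) and 0.59 ± 0.10 on top of fatostatin (adjusted p = 0.000834). Fatostatin moved *Tnf* by −0.07 ± 0.10 alone and 0.02 ± 0.10 on top of EpA, neither past the test. The ratio of *Lta* to *Tnf* was 3.99 ± 0.435 in DMSO, 7.22 ± 0.370 with EpA, and 9.17 ± 0.884 with both compounds.

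*Ltb* followed fatostatin instead. Its levels were 19.5, 19.5, and 19.6 FPKM in DMSO and 20.7, 19.4, and 19.4 FPKM with EpA, which overlapped. They were 24.1, 23.0, and 22.8 FPKM with fatostatin and 25.0, 25.0, and 24.9 FPKM with both, above every library without fatostatin. The rise was small, with a log2 fold change of 0.25 ± 0.03 alone (1.19-fold, adjusted p = 0.000142 by limma) and 0.33 ± 0.03 on top of EpA (1.26-fold, adjusted p = 1.4e-05). EpA gave 0.02 ± 0.03 against DMSO and 0.10 ± 0.03 on top of fatostatin. That last call (adjusted p = 0.0201) was lost with voom on the recovered reads (0.0837) and without fatostatin replicate 2 (0.0677), fatostatin replicate 3 (0.0757), or combination replicate 2 (0.0517).

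The genes around the trio were examined for comparison. Of 7 neighbors, 1 rose and 1 fell with EpA, shares close to the 14.3% and 13.1% of all genes. *Lst1* (0.49, adjusted p = 0.0435 by limma) rose and *Atp6v1g2* (−0.42, adjusted p = 0.0252) fell. *Bag6*, *Prrc2a*, and *Ddx39b*, which are broadly expressed, had log2 fold changes of −0.033, −0.0075, and −0.0075 that did not pass. With fatostatin, *Ddx39b* alone of the 7 passed, at −0.062 (adjusted p = 0.0443).

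**Figure D3:**
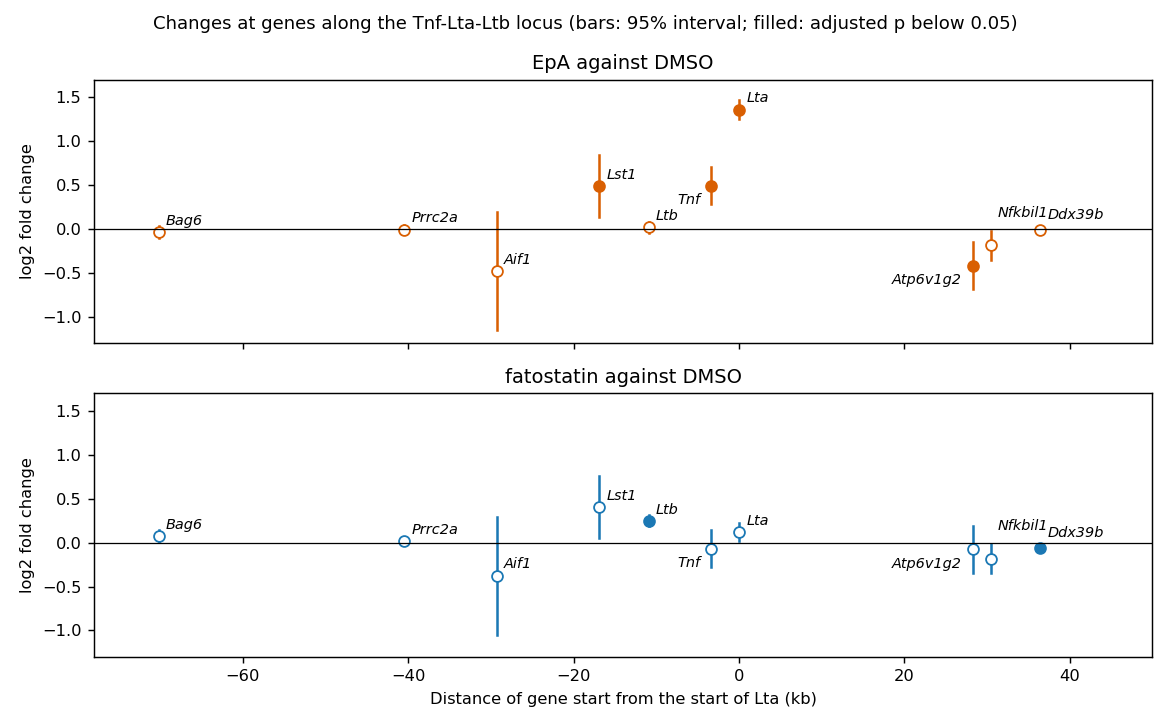
log2 fold change (vertical axis) of *Lta*, *Tnf*, *Ltb*, and 7 neighboring genes against the distance of their start from that of *Lta* in kb (horizontal axis), for EpA and for fatostatin against DMSO; bars are 95% intervals and filled points passed at an adjusted p below 0.05. *Lta* stands at 1.36 with EpA and *Ltb* at 0.25 with fatostatin.

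*Tnfsf14* encodes LIGHT, which shares receptors with the lymphotoxins. It lay between 4.47 and 5.74 FPKM in DMSO, 5.50 and 5.51 with EpA, 4.72 and 5.05 with fatostatin, and 5.16 and 5.54 with both. It passed in none of the 6 comparisons between groups. The log2 fold changes were 0.12 (95% interval −0.04 to 0.28) for EpA and −0.06 (−0.22 to 0.10) for fatostatin against DMSO. DMSO replicate 1 was the highest library of its group, and without it the change with EpA was 0.22 (adjusted p = 0.0204 by limma), that of both compounds against DMSO 0.18 (adjusted p = 0.0316), and that of EpA on top of fatostatin 0.15 (adjusted p = 0.0448).

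*Tnfsf8* encodes CD30 ligand, whose receptor CD30 (*Tnfrsf8*) is itself a protein of activated T cells. Its upstream promoter, chr4:63861348-63861534 on the minus strand of GRCm38.p6 (RefSeq, 5′ to 3′), is shown since it was the most highly expressed ligand gene and rose with both compounds. Capitals mark GGAAA and a match on the opposite strand to the xenobiotic response core GCGTG, which 20.8% of windows of the same 187 bases hold.
Tnfsf8: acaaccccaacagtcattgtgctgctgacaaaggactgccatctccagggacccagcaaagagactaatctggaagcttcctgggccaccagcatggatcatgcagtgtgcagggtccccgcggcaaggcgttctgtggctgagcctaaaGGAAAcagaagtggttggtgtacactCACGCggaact
The levels were 36.7, 38.6, and 36.9 FPKM in DMSO and 49.9, 50.2, and 49.0 FPKM with EpA. With fatostatin they were 72.5, 69.5, and 71.0 FPKM, and with both compounds 89.4, 89.1, and 85.2 FPKM. The 4 groups did not overlap at all. The log2 fold change was 0.41 ± 0.03 with EpA (1.33-fold, adjusted p = 1.0e-06 by limma), 0.92 ± 0.03 with fatostatin (1.90-fold, adjusted p = 2.6e-09), and 1.23 ± 0.03 with both (2.35-fold, adjusted p = 7.3e-11). EpA on top of fatostatin added 0.31 ± 0.03, and fatostatin on top of EpA 0.82 ± 0.03.

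*Tnfrsf8* moved against its ligand with fatostatin. It fell from 94.6 FPKM ± 1.61 in DMSO to 69.6 ± 0.836 with fatostatin (log2 fold change of −0.44, adjusted p = 6.2e-08 by limma), and rose to 105.2 ± 2.03 with EpA (0.15, adjusted p = 0.000152). The level of *Tnfsf8* was therefore 0.396 times that of *Tnfrsf8* in DMSO (SD 0.0174, n = 3), 0.473 times with EpA (SD 0.00401), 1.02 times with fatostatin (SD 0.0243), and 1.11 times with both compounds (SD 0.0345).

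*Tnfsf4* encodes OX40 ligand, a costimulator for T cells that carry OX40 (*Tnfrsf4*). Its levels were 7.42, 6.70, and 6.33 FPKM in DMSO and 6.09, 5.50, and 5.49 FPKM with EpA. With fatostatin they were 19.4, 18.4, and 18.4 FPKM, and with both compounds 13.6, 13.4, and 13.7 FPKM. No groups overlapped, and the combination lay between EpA and fatostatin. Fatostatin raised *Tnfsf4* by 1.45 ± 0.06 on the log2 scale (2.73-fold, adjusted p = 2.6e-08 by limma), the largest change of the 10 genes against DMSO with fatostatin, and by 1.24 ± 0.06 on top of EpA (2.36-fold, adjusted p = 9.1e-08). EpA gave −0.25 ± 0.06 against DMSO (adjusted p = 0.00576) and −0.47 ± 0.06 on top of fatostatin (adjusted p = 8.9e-05).

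OX40 itself was abundant and changed little. *Tnfrsf4* stood at 166 to 194 FPKM as group means, so that *Tnfsf4* had 0.0410 times the level of its receptor in DMSO, 0.0302 times with EpA, 0.109 times with fatostatin, and 0.0699 times with both. *Tnfrsf4* rose by 0.18 with EpA (adjusted p = 8.0e-05 by limma) and changed by 0.04 with fatostatin (adjusted p = 0.222).

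*Tnfsf11* encodes RANKL, the cytokine that drives osteoclast formation. Its levels were 8.50, 10.3, and 9.02 FPKM in DMSO and 8.72, 7.51, and 7.56 FPKM with EpA. They were 12.4, 11.8, and 13.6 FPKM with fatostatin and 10.8, 10.9, and 12.1 FPKM with both. Every library with fatostatin lay above every one without it. The log2 fold change with fatostatin was 0.44 ± 0.08 alone (1.36-fold, adjusted p = 0.00421 by limma) and 0.50 ± 0.08 on top of EpA (1.42-fold, adjusted p = 0.00170). EpA gave −0.22 ± 0.08 against DMSO, which missed the threshold (adjusted p = 0.0690) and passed with voom (0.0354), without DMSO replicate 1 (0.0423), and without EpA replicate 1 (0.0304). Both compounds against DMSO gave 0.28 ± 0.08 (adjusted p = 0.0198), and this call was lost without DMSO replicate 1 (0.0814), DMSO replicate 3 (0.0618), or combination replicate 3 (0.0775).

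*Tnfsf9* encodes 4-1BB ligand and was the least abundant of the 10. Its levels were 1.44, 0.930, and 1.07 FPKM in DMSO and 1.42, 1.36, and 1.34 FPKM with EpA. They were 0.961, 0.583, and 0.708 FPKM with fatostatin and 1.68, 1.23, and 1.29 FPKM with both. The fatostatin group lay below both groups with EpA and overlapped DMSO. EpA against DMSO did not pass, at 0.26 ± 0.18 (95% interval −0.14 to 0.66, adjusted p = 0.334 by limma). Over the alternatives this change ranged from 0.13 to 0.42 and never passed. EpA on top of fatostatin raised *Tnfsf9* by 0.83 ± 0.18 (1.78-fold, adjusted p = 0.00540 by limma). These effects of EpA differed by 0.57 ± 0.26, which did not pass (adjusted p = 0.639). The lower level with fatostatin alone passed without DMSO replicate 2 (−0.68, adjusted p = 0.0499) or fatostatin replicate 1 (−0.73, adjusted p = 0.0275). With a replicate block it passed too (−0.55, adjusted p = 0.0118 by limma). Since 192 exon bases of *Tnfsf9* are shared with the antisense gene *Gm11110*, and the use of strand in counting is not given in the sources used here, its reads cannot be told apart from those of *Gm11110* there.

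*Cd40lg* encodes CD40 ligand, through which helper T cells license dendritic cells and B cells. Its levels were 3.67, 3.99, and 2.67 FPKM in DMSO and 2.88, 2.97, and 2.66 FPKM with EpA. They were 3.32, 3.83, and 4.44 FPKM with fatostatin and 2.24, 3.21, and 2.91 FPKM with both. The fatostatin libraries lay above both groups with EpA, but no comparison passed. EpA on top of fatostatin came closest, at −0.46 ± 0.16 (adjusted p = 0.0505 by limma), and passed in 9 of 23 alternatives, among them voom (0.0295) and those without DMSO replicate 2 (0.0459) or 3 (0.0239), fatostatin replicate 1 (0.0376), or combination replicate 2 (0.0364). Without DMSO replicate 3, both compounds against DMSO passed too (−0.46, adjusted p = 0.0380).

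*Fasl* encodes Fas ligand, which triggers apoptosis in cells that carry Fas. Its levels were 8.29, 10.0, and 7.91 FPKM in DMSO and 9.71, 9.46, and 10.2 FPKM with EpA. They were 10.4, 9.38, and 9.27 FPKM with fatostatin and 11.2, 10.9, and 11.98 FPKM with both. Only the combination lay above all other libraries. It was higher than DMSO by 0.38 ± 0.08 (1.30-fold, adjusted p = 0.00282 by limma). It was higher than fatostatin by 0.23 ± 0.08 (adjusted p = 0.0469), a call lost in 14 of 23 alternatives, including each of those without an EpA or a combination library, DMSO replicate 1, or fatostatin replicate 2 or 3, whose adjusted p ran from 0.0542 to 0.148. Without DMSO replicate 2, *Fasl* also passed with EpA (0.27, adjusted p = 0.00824), with fatostatin (0.25, adjusted p = 0.0216), and for fatostatin on top of EpA (0.21, adjusted p = 0.0223). With all libraries that last comparison missed the threshold (adjusted p = 0.0977), but it also passed with only the compared groups in the fit (0.0356) and with voom (0.0448). *Fas* fell with EpA, from 13.2 FPKM ± 0.529 to 10.2 ± 0.348 (−0.37, adjusted p = 0.00188), and rose with fatostatin to 19.5 ± 1.18 (0.55, adjusted p = 0.00021).

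**Figure D4:**
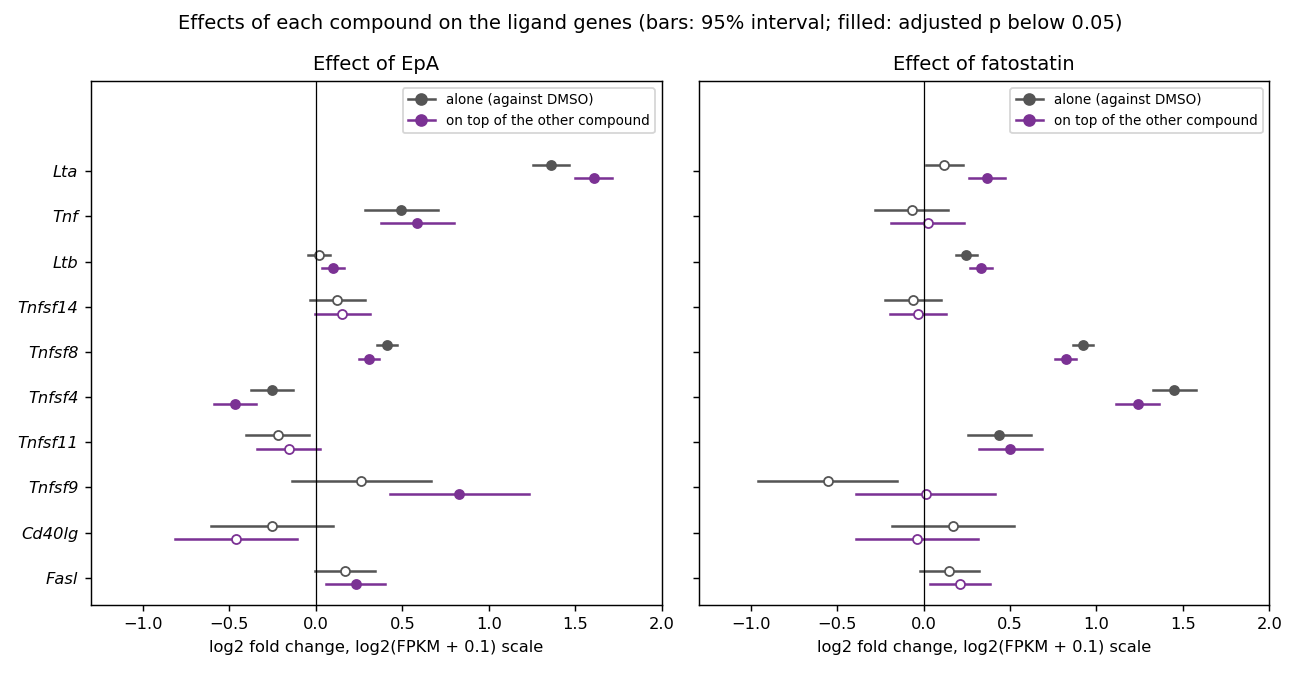
log2 fold change on the log2(FPKM + 0.1) scale (horizontal axis) of the 10 ligand genes for EpA and for fatostatin, each alone against DMSO and on top of the other compound; bars are 95% intervals and filled points passed at an adjusted p below 0.05. The pairs of intervals overlap for every gene but *Lta*, whose pairs are apart for both compounds. *Lta* stands at 1.36 and 1.61 for EpA and *Tnfsf4* at 1.45 and 1.24 for fatostatin.

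Whether the effect of EpA differed in the presence of fatostatin was tested directly. By limma, 0 of the 10 genes passed, where 0.0437% of all genes (6 of 13733) did, and 0 passed with voom on the recovered reads. At an unadjusted p below 0.05 there were 3 of the 10, beside 1083 of the 13733 tested genes. The response of *Lta* was larger by 0.25 with fatostatin (95% interval 0.10 to 0.40, adjusted p = 0.365). That of *Tnfsf4* was lower by 0.21 (−0.39 to −0.04, adjusted p = 0.535), and that of *Tnfsf8* lower by 0.10 (−0.18 to −0.02, adjusted p = 0.529). For *Tnfsf9* the difference was 0.57 with an interval of −0.0024 to 1.14.

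Set directly against each other, a comparison chosen after the values were seen, EpA was higher than fatostatin for *Lta*, *Tnf*, and *Tnfsf9* and lower for *Tnfsf4*, *Tnfsf8*, *Tnfsf11*, and *Ltb*, which makes 3 and 4 of the 10 by limma, against 17.7% of all genes in each direction. Of these, *Lta*, *Tnfsf9*, *Tnfsf4*, and *Tnfsf11* passed 1.5-fold (5.36% of all genes). The sizes ran from −1.70 for *Tnfsf4*, 3.26-fold lower with EpA, to 1.24 for *Lta*, 2.36-fold higher. *Cd40lg* (−0.42, adjusted p = 0.0615) and *Tnfsf14* (0.19, adjusted p = 0.0714) missed the threshold by limma. *Cd40lg* passed without DMSO replicate 3 (0.0300), fatostatin replicate 1 (0.0439), or combination replicate 1 (0.0398), and *Tnfsf14* without DMSO replicate 1 (0.0168) or 3 (0.0247). With only the compared groups in the fit both passed (0.0229 and 0.0169), and *Cd40lg* also passed with voom (0.0413) and when genes averaging under 1 FPKM were left out (0.0467).

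Of 8 other ligands of the family, 2 were expressed enough to be tested, and both fell with EpA, where 13.1% of all genes fell. *Tnfsf10*, which encodes the death ligand TRAIL, went from 10.3 FPKM ± 0.380 in DMSO to 6.27 ± 0.290 (log2 fold change of −0.70, adjusted p = 7.7e-07 by limma). *Tnfsf13b*, which encodes the B cell survival factor BAFF, went from 7.07 ± 0.0802 to 4.74 ± 0.201 (−0.57, adjusted p = 1.1e-05). *Cd70*, *Tnfsf12*, *Tnfsf13*, *Tnfsf15*, *Tnfsf18*, and *Eda* had group means of 0.103 FPKM or less. Some of them sit beside members of the 10 in the genome. *Tnfsf15* lies 86.2 kb from *Tnfsf8*, *Tnfsf18* lies 76.2 kb from *Tnfsf4*, and *Cd70* lies 39.7 kb from *Tnfsf14* and 38.2 kb from *Tnfsf9*.

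The receptor list held 13 genes, the receptors of the 10 ligands plus *Btla* and *Cd160*, which bind the LIGHT receptor HVEM and not the ligands, and 12 were tested. *Tnfrsf11a*, which encodes RANK, was not, with at most 0.0495 FPKM as a group mean. EpA raised 5 and lowered 4 of the 12, fatostatin raised 3 and lowered 2, and both compounds against DMSO raised 6 and lowered 4. In these comparisons 14.3% and 13.1%, 7.69% and 6.31%, and 19.7% and 15.8% of all genes rose and fell. *Btla* is among the higher genes and *Cd160* among the lower ones in each of these counts. The TNF receptors *Tnfrsf1a* (−0.18, adjusted p = 0.0204 by limma) and *Tnfrsf1b* (−0.28, adjusted p = 4.3e-05) fell with EpA, while *Lta* and *Tnf* rose. *Btla* went from 5.47 FPKM ± 0.0375 in DMSO to 10.8 ± 0.377 with both compounds (1.96-fold, adjusted p = 7.9e-08). *Tnfrsf11b*, the decoy receptor for RANKL, went from 0.154 ± 0.0345 to 1.15 ± 0.158 FPKM (4.92-fold, adjusted p = 1.2e-05), resting on 14 to 20 reads in DMSO.

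**Figure D5:**
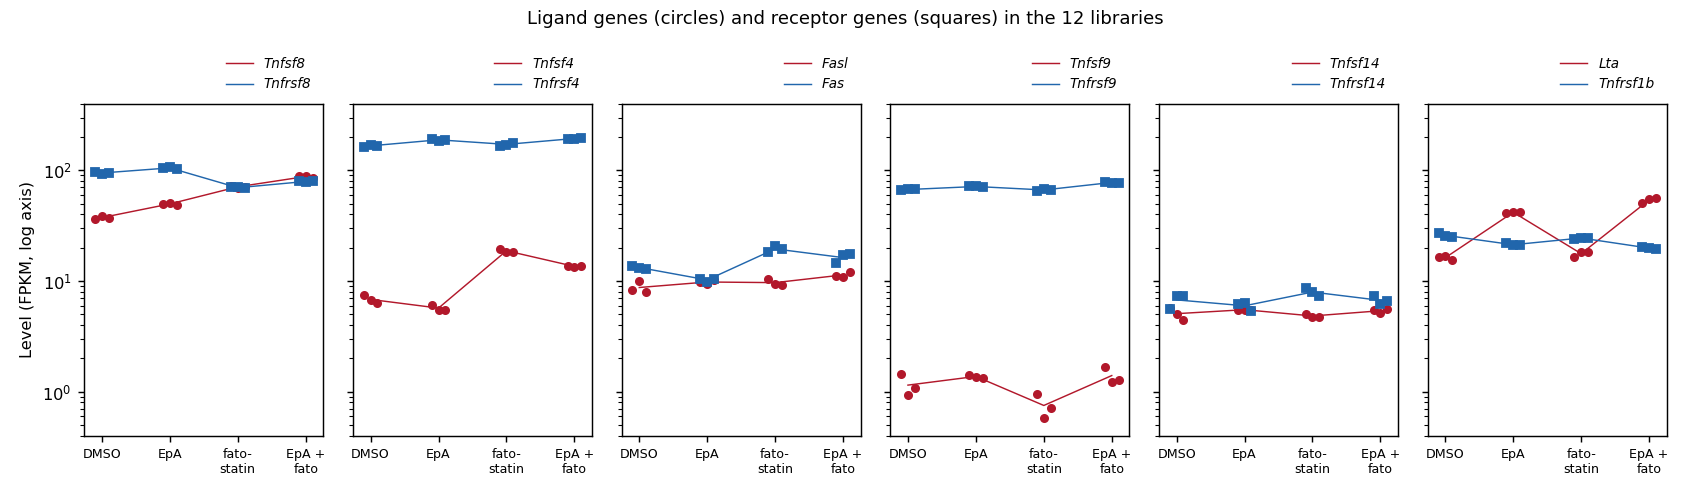
Levels in FPKM on a log axis (vertical) of 6 ligand genes (circles) and a receptor of each (squares) in the libraries of the 4 groups (horizontal axis); lines join group means. *Tnfsf8* and *Tnfrsf8* meet with fatostatin, at a ratio of 1.02, while *Tnfsf4* and *Tnfsf9* stay below *Tnfrsf4* and *Tnfrsf9* in every group.

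The counts of the following lists stand beside the shares of all tested genes, of which 14.3% rose and 13.1% fell with EpA, 7.69% and 6.31% with fatostatin, and 19.7% and 15.8% with both compounds against DMSO. Among 15 NF-κB subunits and feedback inhibitors, both compounds against DMSO raised 10, with a median log2 fold change of 0.29 beside 0.02 for all genes. *Nfkbie* (1.15), *Nfkbia* (0.89), *Nfkb2* (0.86), and *Relb* (0.85) rose most, the first 2 encoding inhibitors and the others subunits of the noncanonical pathway. EpA alone raised 6 and lowered 1, and fatostatin alone raised 7. Of 17 adaptors and kinases below the receptors, EpA raised 4, fatostatin 3, and both compounds 8, with 1 lower for the combination and no change past 1.5-fold. Of 8 tested genes for ligand shedding, 2 rose and 1 fell with EpA, 1 rose with fatostatin, and 3 rose and 2 fell with both, among them *Rhbdf2*, a partner of the TNF-cleaving protease (0.79, adjusted p = 3.4e-05 by limma). Of 8 regulators of mRNA stability, 2 fell with EpA, including *Zfp36*, whose product destabilizes *Tnf* mRNA (−0.68, adjusted p = 2.6e-05 by limma). With fatostatin 2 fell as well, including *Zfp36*, at 5.86 FPKM ± 0.190 against 7.71 ± 0.301 in DMSO (−0.39, adjusted p = 0.00266). The part of *Zfp36* in the level of *Tnf* was not tested. Of 14 tested activation factors, EpA raised 3, including *Fosl2* (0.66), and lowered 7, including *Egr1* (−1.22) and *Egr3* (−1.19). Fatostatin raised 3, including *Egr1* (0.64), and lowered 2.

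For the 6 ligand genes that passed 1.5-fold in any comparison, the genes with the most similar pattern over the 12 libraries were listed, out of 10297 genes that averaged 1 FPKM or more. The points share libraries and group means, so the correlations are a description. *Lta* was closest to *Crem* (Pearson's r = 0.996), *Tpi1* (0.995), and *Odc1* (0.994). *Tnfsf8* was closest to *Sesn2* (0.996), *Slc4a11* (0.995), and *Dglucy* (0.994), and *Tnfsf4* to *Serpina3g* (0.992), *St6galnac4* (0.984), and *Ikbke* (0.982). *Tnf* was closest to *Hsd17b12* (0.972), *Mrpl47* (0.965), and *Rsl24d1* (0.962), *Tnfsf11* to *Gm32633* (0.972), *Rbm43* (0.970), and *Akap8l* (0.959), and *Tnfsf9* to *Ube2e2* (0.928), *Tagap* (0.917), and *Tmem30a* (0.908).

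Of the markers of other cells that passed with EpA, where *Lta* and *Tnf* were higher, only *Lyz2* rose and the others fell. In that comparison 14.3% of all tested genes rose and 13.1% fell. The 5 natural killer cell markers summed to 4.87 to 5.32 FPKM in DMSO, 2.61 to 3.22 with EpA, 3.66 to 4.06 with fatostatin, and 1.86 to 2.35 with both, with *Klrd1* and *Eomes* lower with EpA and *Klra8* at 3 reads or fewer in every library. *Cd8a* fell with EpA (−1.08, adjusted p = 2.9e-05 by limma), while the more abundant *Cd8b1* did not pass, at 7.60 FPKM ± 0.426 in DMSO and 7.47 ± 0.404 with EpA (−0.025, adjusted p = 0.877). The sum of *Cd8a* and *Cd8b1* was 8.71 to 9.79 FPKM in DMSO and 7.85 to 8.57 with EpA. Of 3 tested B cell markers, 1 fell with EpA, *Cd79a*, from 0.791 FPKM ± 0.0687 in DMSO to 0.489 ± 0.0865 (−0.60, adjusted p = 0.0127). Of 5 tested myeloid and dendritic cell markers, 1 rose and 1 fell. *Lyz2* went from 0.0371 FPKM ± 0.0352, on 0 to 4 reads, to 0.186 ± 0.0624, on 6 to 12 reads (adjusted p = 0.00934), and *Xcr1* from 0.195 FPKM ± 0.0560 to 0.0847 ± 0.00572 (−0.66, adjusted p = 0.0338). T cell markers summed to 755 to 761 FPKM in DMSO and 725 to 729 with EpA, but they moved both ways. Of 7 tested, 5 were lower and 2 higher, against 13.1% and 14.3% of all genes. Their median log2 fold change was −0.20. With fatostatin, where *Tnfsf4* and *Tnfsf8* rose, myeloid and dendritic cell markers summed to 2.32 to 3.01 FPKM against 2.06 to 2.28 in DMSO. The part of these cells in the changes of the ligand genes was not tested.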

How the data were processed

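RNA-seq was measured in 12 libraries (4 groups of 3). Per the methods and labels, the authors trimmed the reads, mapped them with HISAT2 (GRCm38), counted them per gene, and deposited FPKM values. The annotation release and the use of strand are not given in the sources used here. Of 32352 lines, 301 repeated a gene and were dropped, leaving 32051 genes. With exon lengths from a GRCm38 annotation, 98.6% to 98.7% of values below 2000 reads came out whole (within 0.1 reads).

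Genes averaging 0.1 FPKM or more were tested on log2(FPKM + 0.1) with limma 3.58.1 in R 4.3.3, in 1 fit with a mean per group and an intensity trend. Two-sided p-values received Benjamini-Hochberg adjustment over 13733 genes. Fold changes understate the change of low genes. The script was tested on simulated data. Python 3.11.15 was used for descriptions.

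All 10 genes, their receptors, the locus neighbors, and other family ligands could be named. From the remaining lists, genes past an adjusted p of 0.05 and 1.5-fold could be named, at most 4 per list and comparison, with the 3 most similar genes of each ligand past 1.5-fold. *Cd8b1*, *Cd79b*, *Siglech*, and *Klra8* fall outside this rule and were named after their values were seen. The members and lists were chosen with earlier results of these data known. EpA against fatostatin was added after the data were seen. The alternatives changed the fold threshold, pseudocount, minimum level, scaling, groups fitted, variance model, replicate block, and library set, or used voom.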

Additional observations from a re-analysis of the deposited data

How the results depend on the processing

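Over 23 alternatives, the calls of *Lta*, *Tnf*, *Tnfsf4*, and *Tnfsf8* with EpA, and of *Tnfsf4*, *Tnfsf8*, *Tnfsf11*, and *Ltb* with fatostatin, against DMSO, were kept. *Lta* with EpA ranged from 1.31 to 1.38 and *Tnfsf4* with fatostatin from 1.34 to 1.51 on the log2 scale. Of the single-gene values, 1531 stayed on their side of the threshold, 34 passed newly, 21 no longer passed, and 14 changed sign. Requiring a fold change of at least 1.5 cut the genes counted to 1 (EpA against DMSO), 2 (fatostatin against DMSO), 2 (both against EpA), 3 (both against fatostatin), 3 (both against DMSO), and 4 (EpA against fatostatin), by construction. *Tnfsf9* with EpA on top of fatostatin ranged from 0.45 to 1.00. Sign changed for none of the called values. Under median-ratio scaling, *Tnfsf9* with fatostatin on top of EpA, at 0.012, became −0.0049. The other changes of sign came from leaving out 1 library, with these ranges: *Ltb* with EpA −0.013 to 0.034, and *Tnfsf14* with fatostatin −0.15 to 0.031. For fatostatin on top of EpA they were *Tnf* −0.018 to 0.062, *Cd40lg* −0.15 to 0.11, and *Tnfsf9* −0.12 to 0.092, and for EpA against fatostatin *Fasl* −0.011 to 0.070. For the change in the EpA effect with fatostatin they were *Fasl* −0.041 to 0.13, *Tnfsf11* −0.013 to 0.13, and *Tnfsf14* −0.062 to 0.11. Replicate numbers did not pair the samples: over 18 pairs the correlation of deviations ran from −0.05 to 0.07, and 7 correlated best with their own number. With the replicate block, *Tnfsf9* passed for fatostatin against DMSO (−0.55, adjusted p = 0.0118 by limma) and *Fasl* did not for EpA on top of fatostatin (adjusted p = 0.0757), and no other call on the 10 genes changed. *Tnfsf9* and *Cd40lg* had the fewest reads of the 10 genes, at 30 to 92 and 119 to 225 per library.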
